A study of Mus musculus with 9 samples.

Results

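The TRIM genes encode tripartite motif proteins, most of which are ubiquitin ligases. They were taken here as every row of the count table whose mouse symbol is Trim followed by a digit and whose counts sum to at least 10 over the 9 libraries. Of 55487 genes in the table, 69 carry such a symbol and 49 passed this minimum. The other 20 had fewer than 10 counts, 12 of them none at all. The member with the fewest counts was Trim17, with 11, and Trim29, with 9, lay just outside. The samples are B16F10 cells, a mouse melanoma line, grown in DMEM with serum and harvested after 6 h. Each of 3 groups has 3 libraries: medium alone (media), interferon gamma (IFNγ) at 50 ng/mL, and IFNγ at 50 ng/mL with FK866 at 50 nM. FK866 inhibits NAMPT, the enzyme that limits NAD salvage. The treatment text names mouse or human IFNγ and states the dose for the mouse protein. No group received FK866 alone, so its effect without IFNγ was not analysed here. The libraries of each group carry the titles Control 3, Control 4 and Control 5, and what these numbers stand for is not stated. Separate cultures are not stated for the libraries of a group, and the p-values given here then reflect library-to-library spread, which may be technical.

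Most TRIM proteins hold a RING finger that recruits a ubiquitin-conjugating enzyme, B-box zinc fingers and a coiled coil. In most, a C-terminal region that sets what the protein binds follows. The most common C-terminal region is the SPRY domain, also called PRY-SPRY or B30.2. Interferons are known to raise many SPRY members, several of which restrict viruses or tune RNA and DNA sensing, while others act in chromatin, development, muscle or cell division without a known link to interferon. The promoters of interferon-responsive genes are known for 2 short motifs, the GAS element and the ISRE, and STAT2 and IRF9 belong to a complex that binds the ISRE.

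Library totals ran from 15317003 to 18466972 counts, of which the TRIM genes took 0.154% to 0.199%. Levels are given in normalised CPM, which are counts scaled to library size with edgeR's TMM factors, in the order Control 3, Control 4, Control 5. A gene was called where edgeR's quasi-likelihood test gave an adjusted p below 0.05 over the 15237 genes tested. Of the 49 TRIM genes, 43 were tested. Trim10, Trim17, Trim38, Trim50, Trim66 and Trim72 were too low, with 11 to 66 counts over all libraries. The summed level of 7 melanocyte lineage markers lay between 15000 and 19000 CPM in every library. The summed level of 9 leukocyte markers lay between 3.91 and 12.2 CPM with Ptprc, Itgam, Adgre1 and Csf1r at 0, and that of 10 fibroblast, endothelial and keratinocyte markers between 8.64 and 19.0 CPM with Cdh5, Kdr, Krt5 and Krt14 at 0. Of these markers, Mitf (807 ± 68.4 CPM in media, 335 ± 60.5 CPM with IFNγ) and Col1a2 (5.45 ± 1.24 and 1.68 ± 0.328 CPM; SD, n = 3) were called, both lower with IFNγ, and their part in the results was not tested.

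With IFNγ, 9 of the 43 TRIM genes tested rose and none was called lower in the fit without the Control number. The 9 were Trim12a, Trim12c, Trim21, Trim25, Trim26, Trim30a, Trim30d, Trim34a and Trim56, with log2 fold changes between 1.09 and 6.00. They make up 20.9% of the TRIM genes tested, where 2.8% of all genes tested were called higher and 0.499% lower, 3.3% in all. At an unadjusted p below 0.05, Trim2 and Trim71 were lower than in media by edgeR. DESeq2 and limma-voom, also without the Control number, called 0 TRIM genes lower after adjustment. A fit that takes the Control number as a block, described below, called 5 lower (11.6%, beside 6.14% of all genes tested). The median log2 fold change of the 43 was -0.08, beside -0.01 over all genes tested. In bulk RNA, a change in every cell and a change in some of the cells cannot be told apart. Structural classes were assigned from general knowledge of the family and were not checked against protein sequences, including for Trim12a. Of the 23 members tested that were placed in the SPRY class, without COS and FN3 domains, 8 were called higher. So was Trim56, of the 3 placed in the class without a C-terminal domain. None of the 17 members tested in the other classes was called higher. These comprise 4 with COS, FN3 and SPRY domains (Trim9, Trim36, Trim46 and Trim67) and the NHL, PHD-bromodomain, COS, transmembrane, MATH, ARF and filamin types.

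**Figure D1:**
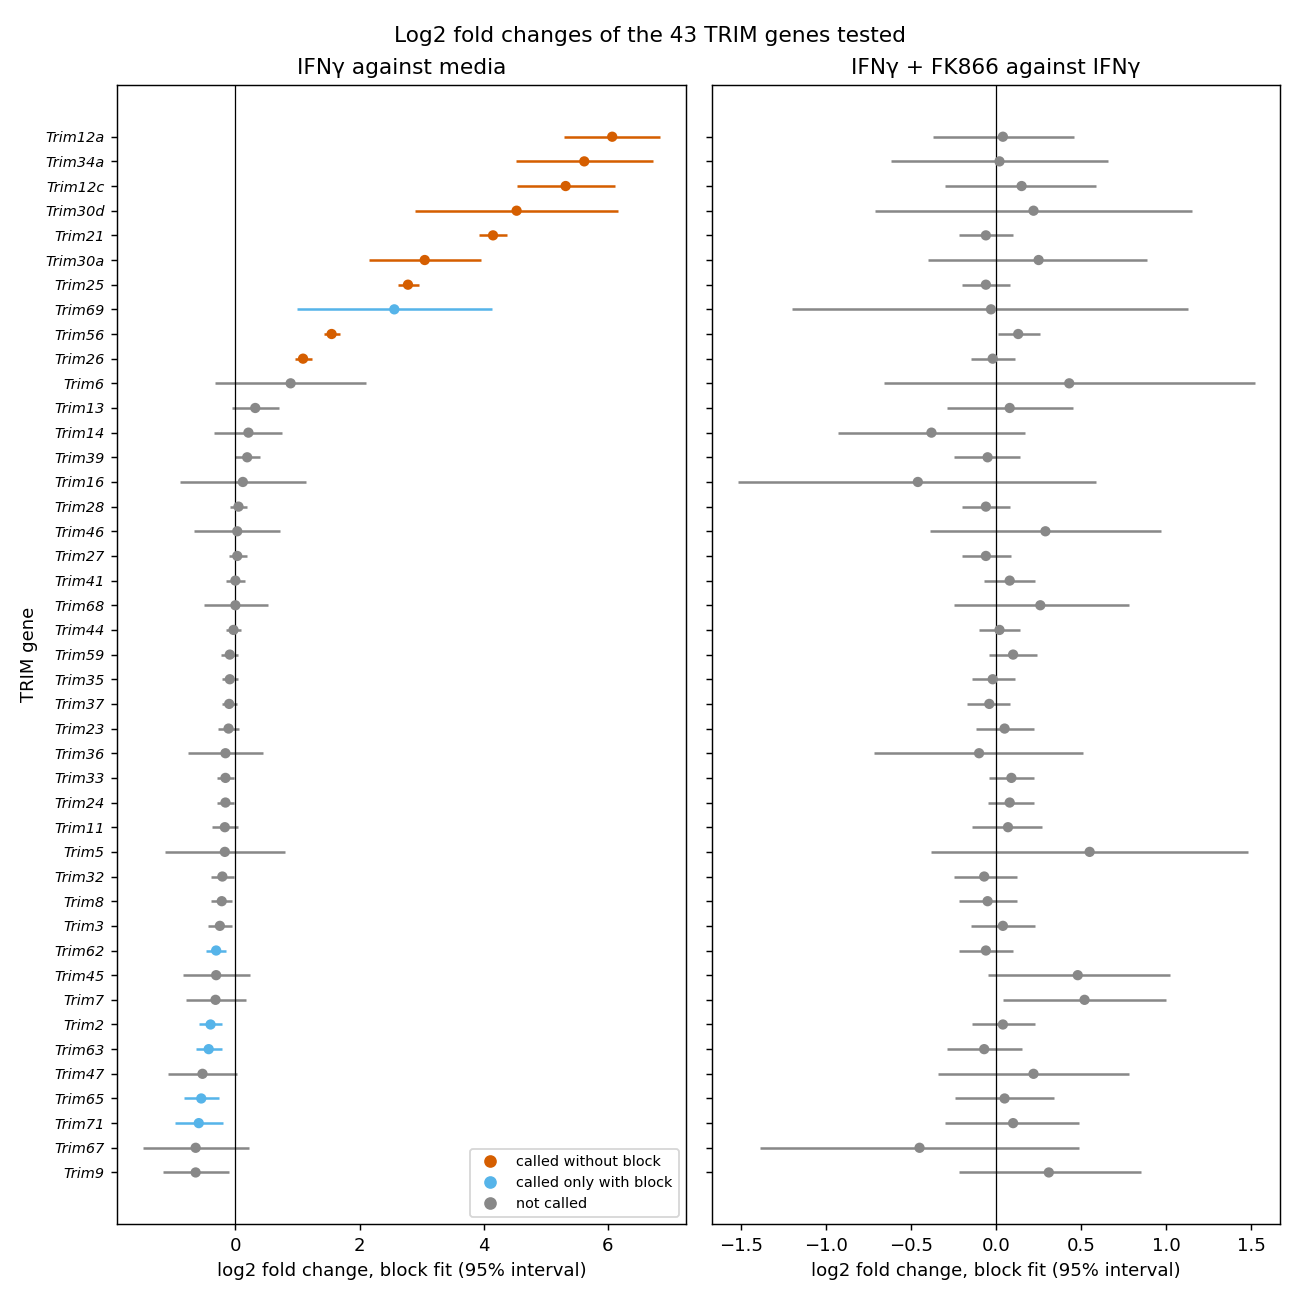
Log2 fold changes of the 43 TRIM genes tested, with 95% intervals, from the fit that takes the Control number as a block, for IFNγ against media (left) and IFNγ plus FK866 against IFNγ (right). Orange marks the 9 genes called higher without the block, blue the genes called only with it, and the right panel, on a narrower scale, has no called gene.

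Of the 9 genes that rose, 5 stand in 1 stretch of chromosome 7, and 8 of the 9 have a match to the core of the ISRE in a promoter. RefSeq (GRCm38.p6) gives promoters of 300 bases, 250 before and 50 from the transcript start, for 38 TRIM genes and 51 starts. They were searched for the core of the ISRE, written GAAANNGAA, and for the GAS element, TTCNNNGAA, on both strands. The ISRE core stood in 9 of the 10 promoters of the 9 genes that rose and in 3 of 37 promoters (8.1%) of members tested and not called higher. Among all 32851 promoters of the table the share was 8.6%, and among promoters of genes tested 7.0%. The GAS element stood in 0 of the 10 promoters, beside 8.3% of all promoters. A match is a description of these letters and not a shown binding site. The stretches below hold 70 bases before and 30 from each start, except for Trim26, whose stretch ends 91 bases before it. They are written 5′ to 3′ in the direction of the gene, with capitals for the ISRE core on either strand. The genes that rose and Trim5 are shown. The promoters with a match are not independent, since those of near relatives on chromosome 7 are close in sequence. Trim56 has no match, and Trim5 is the neighbour that carries a match and did not rise.
Trim34a (chr7:104244387-104244486, plus strand): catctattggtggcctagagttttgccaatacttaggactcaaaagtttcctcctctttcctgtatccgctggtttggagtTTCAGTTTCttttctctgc
Trim12a (chr7:104315466-104315565, minus strand): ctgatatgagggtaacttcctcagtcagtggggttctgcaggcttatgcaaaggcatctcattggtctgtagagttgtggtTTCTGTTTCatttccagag
Trim12c (chr7:104353320-104353419, minus strand): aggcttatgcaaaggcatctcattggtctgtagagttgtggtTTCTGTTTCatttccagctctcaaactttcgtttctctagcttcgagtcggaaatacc
Trim30a, upstream start (chr7:104465164-104465263, minus strand): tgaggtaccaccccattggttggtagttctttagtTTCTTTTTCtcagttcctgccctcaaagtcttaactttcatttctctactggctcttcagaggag
Trim30a, downstream start (chr7:104446096-104446195, minus strand): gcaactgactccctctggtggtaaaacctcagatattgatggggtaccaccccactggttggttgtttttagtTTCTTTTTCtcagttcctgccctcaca
Trim30d (chr7:104507820-104507919, minus strand): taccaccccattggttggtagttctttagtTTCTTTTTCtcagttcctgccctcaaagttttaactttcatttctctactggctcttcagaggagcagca
Trim21 (chr7:102565453-102565552, minus strand): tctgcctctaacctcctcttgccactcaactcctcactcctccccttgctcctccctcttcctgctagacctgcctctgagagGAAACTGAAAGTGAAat
Trim25 (chr11:88999333-88999432, plus strand): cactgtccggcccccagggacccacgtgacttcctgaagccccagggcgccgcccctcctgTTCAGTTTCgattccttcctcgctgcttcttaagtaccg
Trim26 (chr17:36836956-36837055, plus strand): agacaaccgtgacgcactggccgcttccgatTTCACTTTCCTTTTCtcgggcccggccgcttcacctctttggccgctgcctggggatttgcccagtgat
Trim56 (chr5:137116178-137116277, minus strand): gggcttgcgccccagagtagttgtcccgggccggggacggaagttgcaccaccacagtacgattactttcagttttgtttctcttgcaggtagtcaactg
Trim5 (chr7:104288077-104288176, minus strand): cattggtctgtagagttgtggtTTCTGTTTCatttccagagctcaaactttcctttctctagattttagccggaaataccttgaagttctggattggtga

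The letters differ little between the neighbours. Trim12a, Trim12c and Trim5 all carry TTCTGTTTC, which is the ISRE core read on the other strand. Trim30a at both of its starts and Trim30d carry TTCTTTTTC, and Trim34a and Trim25 carry TTCAGTTTC. Trim25 has the match in the 9 bases directly before its start. Trim21 holds 2 overlapping matches in the sense direction, at bases 14 to 22 and 20 to 28 after its start, and Trim26 holds 2 overlapping matches from 159 to 145 bases before its start. The other members with a match to the ISRE core and no call were Trim2 and Trim7. The GAS element stood in promoters of Trim45 and Trim46, which were not called, and of Trim38, which was not tested.

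Trim21, the cytosolic antibody receptor that sends antibody-coated particles to the proteasome, was the member with the smallest p. Its levels were 2.95, 6.03 and 5.73 CPM in media. They were 73.5, 93.0 and 93.8 CPM with IFNγ, and 64.5, 100.4 and 87.1 CPM with IFNγ plus FK866. Every library with IFNγ lay above every media library, and the Control 3 library was the lowest of each group. The log2 fold change with IFNγ was 4.14 (SE 0.27), a 17.6-fold rise, with an adjusted p of 1.58e-05 by edgeR. Per kilobase of exon its level went from 1.32 to 23.4 CPM, a level that only Trim28, Trim44 and Trim35 exceeded in the IFNγ libraries. Trim21 lies at chr7:102557921-102565486 on the minus strand, apart from the other TRIM genes of that chromosome except Trim68, and Trim68 was not called (2.96 ± 1.42 CPM in media and 2.87 ± 0.387 CPM with IFNγ, SD, n = 3).

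Trim25, the ligase best known as a cofactor of the RNA sensor RIG-I, lies at chr11:88999376-89020293 on the plus strand and was measured at 7.34, 20.7 and 17.1 CPM in media. With IFNγ it stood at 52.3, 158 and 103 CPM, and with FK866 added at 51.7, 146 and 99.3 CPM. The groups with IFNγ did not overlap media, while within each group Control 3 was lowest and Control 4 highest. The log2 fold change was 2.79 (SE 0.52, adjusted p = 0.017 by edgeR). Within each number the ratio of IFNγ to media was close: 7.12 in Control 3, 7.62 in Control 4 and 6.02 in Control 5. The call of Trim25 without a block was lost without media Control 3 (adjusted p = 0.0562), media Control 5 (0.0682) or IFNγ Control 4 (0.0629).

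Trim56, a ligase tied to STING and Toll-like receptor signalling, lies at chr5:137105644-137116209 on the minus strand and stood in media at 44.4, 51.2 and 40.2 CPM. It was at 134, 146 and 119 CPM with IFNγ and at 154, 164 and 120 CPM with FK866 added. All 6 libraries with IFNγ exceeded the highest media library. The log2 fold change with IFNγ was 1.55 (SE 0.15, adjusted p = 2.16e-04 by edgeR), or 2.93-fold. Trim26, linked to the control of interferon beta induction, showed the smallest of the called changes. Its levels were 41.1, 45.2 and 41.3 CPM in media. They reached 90.1, 99.1 and 83.2 CPM with IFNγ and 91.5, 92.3 and 84.9 CPM with IFNγ plus FK866. The groups were tight and did not overlap, and the log2 fold change was 1.09 (SE 0.10, adjusted p = 1.44e-04). Trim26 opens a run of 5 TRIM rows at chr17:36837134-36910214, in which only Trim10 also passed the minimum, with 66 counts over all libraries.

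**Figure D2:**
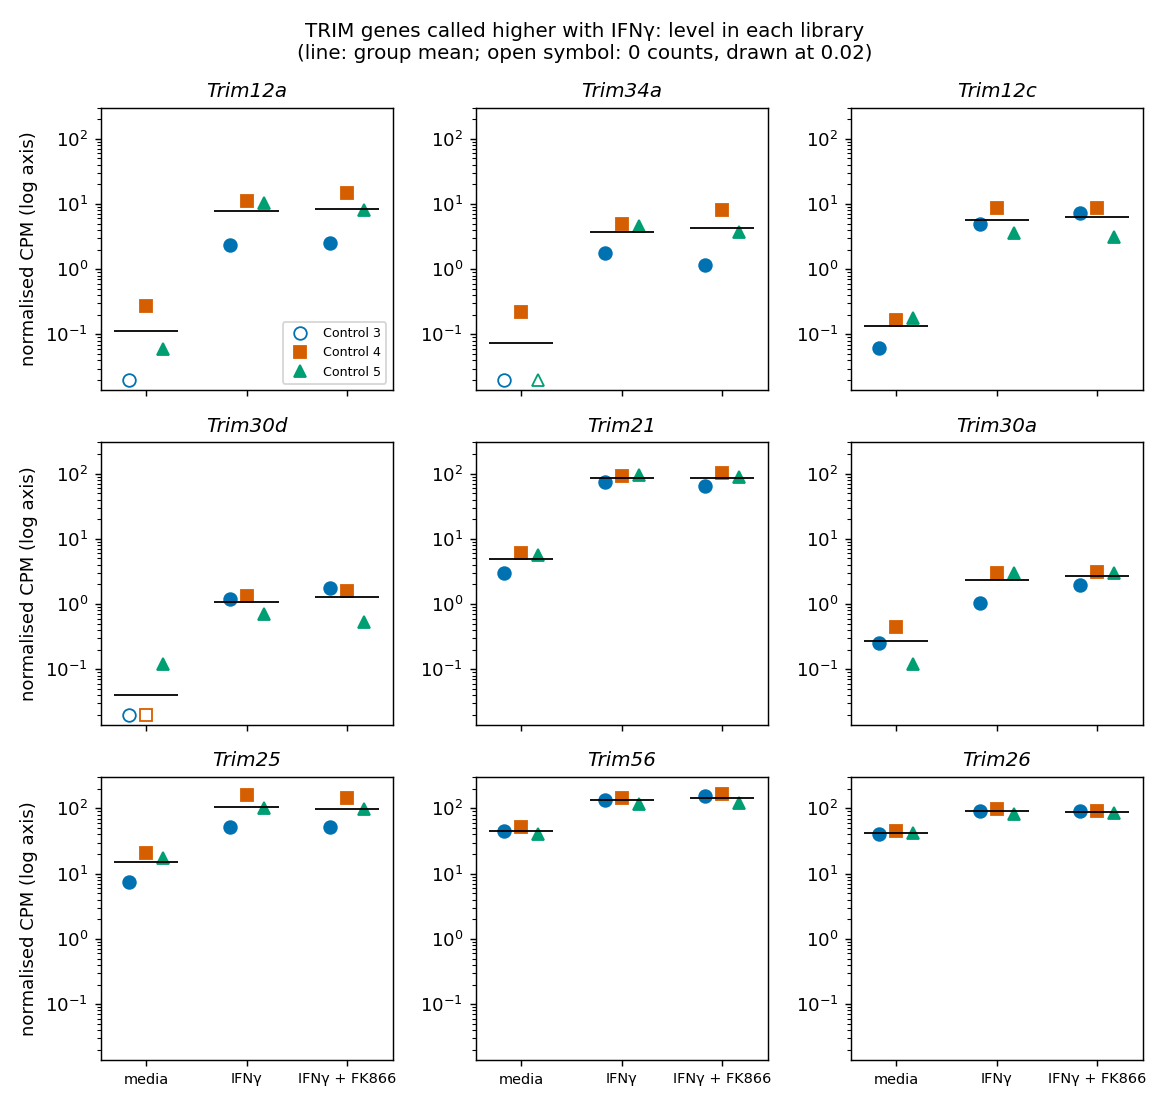
Normalised CPM (log axis) of the 9 TRIM genes called higher with IFNγ, by group, with 1 symbol for each library and a line for the group mean. All libraries with IFNγ lie above all media libraries in each panel, and for Trim12a, Trim21 and Trim25 the Control 3 library is the lowest of each group. An open symbol stands for 0 counts.

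The remaining 5 genes that rose belong to the run at chr7:104218793-104535361, which holds 11 TRIM rows, 7 of them members. These genes are the mouse relatives of TRIM5, which recognises the capsids of incoming retroviruses in primates, with Trim6, Trim34 and the Trim30 genes. Trim12a, Trim12c, Trim30a, Trim30d and Trim34a were called higher. Trim5 and Trim6 were not. Trim34b, Trim30b, Trim30c and Trim30e-ps1 had 0 to 2 counts over all libraries. The run thus holds genes that were next to silent in media and rose, beside neighbours that were not called.

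Trim12a had 0, 0.274 and 0.0597 CPM in media, from 6 counts in all. With IFNγ it had 2.37, 11.1 and 10.2 CPM, and with FK866 added 2.51, 14.7 and 7.99 CPM. The groups with IFNγ lay far above media, and Control 3 was low in each group. The log2 fold change was 6.00 (SE 1.04, adjusted p = 0.011 by edgeR), and the ratio of summed counts was 68.6 (95% counting interval 31.3 to 188). Leaving out media Control 4, which held 5 of the 6 media counts, gave a log2 fold change of 7.70, and without media Control 5 the call was lost (adjusted p = 0.0642), as it was with limma-voom (0.175).

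Trim12c stood at 0.0628, 0.164 and 0.179 CPM in media, from 7 counts. It stood at 4.94, 8.71 and 3.61 CPM with IFNγ and at 7.32, 8.79 and 3.14 CPM with IFNγ plus FK866. Here Control 4 was highest and Control 5 lowest among the libraries with IFNγ, an order that differs from that of Trim12a. The log2 fold change was 5.32 (SE 0.60, adjusted p = 7.08e-04 by edgeR), and the call held with every library left out in turn.

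Trim34a was found in a single media library, with 4 counts in Control 4 (0.219 CPM). With IFNγ it reached 1.78, 4.99 and 4.56 CPM, and with FK866 added 1.17, 7.96 and 3.73 CPM. No library with IFNγ overlapped media. The ratio of summed counts was 48.8 (95% counting interval 18.8 to 181), and the log2 fold change was 5.48 (SE 1.05, adjusted p = 0.0195 by edgeR). Without media Control 4 every media library is at 0 and the fitted value, 8.98, is no bound. The call was lost without media Control 3 (0.0764), media Control 5 (0.0843) or IFNγ Control 4 (0.0645) and with limma-voom (0.0769).

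Trim30a, reported to restrain Toll-like receptor signalling through TAB2 and TAB3, had 0.251, 0.438 and 0.119 CPM in media. It had 1.05, 2.98 and 3.02 CPM with IFNγ and 1.95, 3.12 and 3.01 CPM with FK866 added. The groups did not overlap, and the log2 fold change with IFNγ was 3.08 (SE 0.55, adjusted p = 0.0132 by edgeR). The call was lost without media Control 3 (0.0588), media Control 5 (0.0577) or IFNγ Control 4 (0.0549). Trim30d, its neighbour and close relative, had 2 counts in media, both in Control 5, and 52 with IFNγ. Its levels with IFNγ were 1.19, 1.34 and 0.711 CPM, and with FK866 added 1.73, 1.61 and 0.524 CPM. The ratio of its summed counts was 27.3 (95% counting interval 7.19 to 232), with an adjusted p of 0.022 by edgeR. That call was lost without media Control 3 (0.0799), media Control 4 (0.0984), IFNγ Control 3 (0.0595) or IFNγ Control 4 (0.0818), and without media Control 5 every media library is at 0. Counting intervals cover counting error only.

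Beside these, Trim5 stayed low, at 1.00, 0.548 and 0.657 CPM in media and 0.593, 0.548 and 0.829 CPM with IFNγ. The groups overlapped, with a log2 fold change of -0.16 (SE 0.44, adjusted p = 1 by edgeR). Trim6, which builds free ubiquitin chains that activate IKK epsilon, had 0, 0.603 and 0.418 CPM in media and 0, 0.731 and 1.18 CPM with IFNγ. It was not called either (adjusted p = 1). Levels of these neighbours are partly shared in sequence. Of the 50-base stretches in the annotated transcripts of Trim34a, 59.7% also occur in another gene, 39.8% in Trim34b, which had 0 counts. The shares were 36.6% for Trim5, 33.7% for Trim12c, 10.5% for Trim12a, 7.5% for Trim30d and 6.0% for Trim30a. For Trim12c most of the shared stretches (24.2% of all) were with Trim5. How reads in shared stretches were counted is not given in the sources used here, so the levels of Trim34a, Trim12c and Trim5 are uncertain. An antisense gene, Gm47248, covers 23.5% of the exon bases of Trim34a, and without a stated strand their reads cannot be told apart. The share was at most 1.2% for Trim21, Trim25, Trim26 and Trim56.

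**Figure D3:**
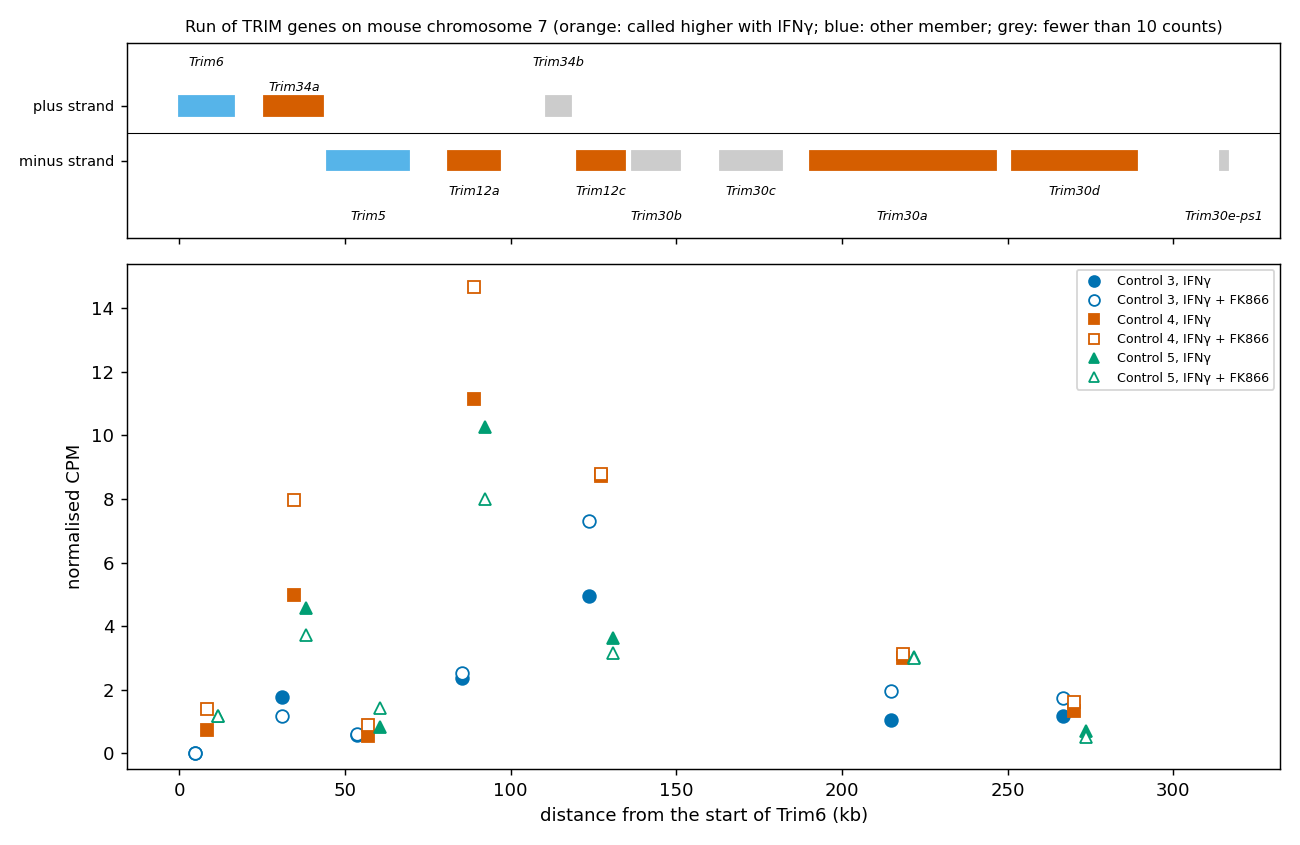
Above, the 11 TRIM rows of the chromosome 7 run by distance from the start of Trim6 and by strand; below, the normalised CPM of its 7 members in each library with IFNγ (filled) and with IFNγ plus FK866 (open). Trim12a and Trim34a have Control 3 (blue) lowest, Trim12c and Trim30d have Control 5 (green) lowest, and CPM is not scaled to gene length, so heights compare libraries and not genes.

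The fit with the Control number as a block called 10 TRIM genes higher with IFNγ and 5 lower, 15 in all in place of 9, beside 8.12% of all genes tested called higher and 6.14% lower, 14.3% in all. All 9 genes named above were among the 10, and all 9 stayed called with any 1 number left out of this fit. Their adjusted p by edgeR with the block ran from 2.57e-17 for Trim21 to 2.4e-04 for Trim30d. The lost calls given above for these genes with 1 library left out are from the fit without the block. The tenth was Trim69, a ligase expressed in testis and reported to restrict some RNA viruses. It had 0.188, 0 and 0.119 CPM in media. It had 0.922, 0.670 and 0.296 CPM with IFNγ and 0.503, 0.572 and 0.720 CPM with FK866 added. The groups did not overlap, but they rest on 5 media counts and 30 IFNγ counts (ratio 6.30, 95% counting interval 2.42 to 20.8). The adjusted p by edgeR was 0.0244 with the block and 0.15 without it, and the blocked call was lost without Control 3 (0.0737) or Control 4 (0.271). Trim69 starts 7616 bases after the end of B2m, on the same strand of chromosome 2. B2m encodes the light chain of MHC class I, and any link between these neighbours was not tested.

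The 5 genes called lower only with the block had log2 fold changes between -0.59 and -0.31. Trim2, an NHL member known from neurons, had 36.1, 31.7 and 33.4 CPM in media and 30.2, 23.7 and 22.98 CPM with IFNγ. The groups did not overlap. Its log2 fold change was -0.40, with an adjusted p by edgeR of 0.00219 with the block and 0.342 without. Trim63, the muscle ligase also called MuRF1, had 39.3, 26.6 and 30.7 CPM in media and 27.9, 16.3 and 28.5 CPM with IFNγ, lower in each number although the groups overlapped. Its log2 fold change was -0.43 (0.00505 with the block, 0.86 without). Trim65, a partner of the RNA sensor MDA5, had 13.4, 17.1 and 13.1 CPM in media against 6.58, 13.2 and 10.5 CPM with IFNγ, and gave -0.55 (0.00695 and 0.649). Trim62 had 57.3, 34.0 and 50.9 CPM against 41.9, 31.2 and 39.98 CPM, and gave -0.31 (0.00699 and 0.89). Both were lower in each number while their groups overlapped. Trim71, a stem cell protein also called LIN41, had 7.41, 8.98 and 7.22 CPM against 5.00, 4.45 and 6.46 CPM without overlap, and gave -0.59 (0.0378 and 0.348). With 1 number left out at a time from the block fit, Trim2 was called each time. The call of Trim63 was lost without Control 4 (adjusted p = 0.133) and that of Trim65 without Control 3 (0.12). Trim62 was lost without Control 3 (0.132) or Control 5 (0.072), and Trim71 without Control 3 (0.0778) or Control 4 (0.473). In libraries that did not overlap, 10 TRIM genes were above media with IFNγ (the 9 and Trim69, beside 7.97% of all genes tested) and 4 below (Trim2, Trim33, Trim67 and Trim71, beside 5.85%).

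Most of the abundant TRIM genes did not pass the test with IFNγ. Per kilobase of exon, averaged over the 9 libraries, the highest were Trim28 at 74.0 CPM, Trim44 at 29.6, Trim35 at 25.6, Trim37 at 20.8 and Trim59 at 20.2. Trim28 is the corepressor that KRAB zinc finger proteins recruit to silence retroelements, Trim44 lacks a RING finger, Trim37 acts at centrosomes and peroxisomes, and Trim59 sits in the endoplasmic reticulum membrane. Their log2 fold changes with IFNγ ran from -0.10 to 0.05, with an adjusted p of 1 each by edgeR. Of the 43 tested and 6 untested members, 13 reached 10 CPM per kilobase and 22 stayed under 1. Trim28 measured 306 ± 76.0 CPM in media, 316 ± 71.5 CPM with IFNγ and 300.3 ± 48.5 CPM with IFNγ plus FK866 (SD, n = 3). The other 2 chromatin members of its class that were tested gave log2 fold changes of -0.17 for Trim24 (SE 0.11) and -0.16 for Trim33 (SE 0.09).

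FK866 on top of IFNγ called 0 TRIM genes with edgeR, without or with the block, and 0 with DESeq2 or limma-voom. Over all genes tested the share called was 0% in each direction without the block, and 0.0131% higher and 0.00656% lower with it, 0.0197% in all. At an unadjusted p below 0.05, edgeR passed no TRIM gene without the block (0.578% of all genes tested) and 2 with it (3.76%). These were Trim56, with a log2 fold change of 0.13, and Trim7, with 0.52, and the adjusted p was 0.987 for each. Trim7 is a SPRY member that binds glycogenin, and its levels were 4.41, 3.53 and 1.24 CPM with IFNγ and 5.14, 4.58 and 2.88 CPM with FK866 added. They were higher in each number, yet the groups overlapped. Such a rise in all 3 numbers was seen in 11 members (12.1% of all genes tested) and a fall in 4 (16.2%). No member had every FK866 library above every IFNγ library (1.94%), and 1 had every such library below (1.39%), Trim14, at 2.30, 3.05 and 2.61 CPM with IFNγ and 1.56, 2.29 and 2.29 CPM with FK866 added. Trim14, a SPRY member without a RING finger, shares 38.0% of its exon bases with genes on the opposite strand, Nans among them. The median log2 fold change of the 43 was 0.05, beside -0.01 over all genes tested.

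For the 9 genes that IFNγ raised, the block fit put the log2 fold change of FK866 between -0.06 and 0.25. The 95% interval was -0.20 to 0.08 for Trim25, -0.22 to 0.10 for Trim21, -0.15 to 0.11 for Trim26 and 0.01 to 0.26 for Trim56. It was wider for the low genes of the chromosome 7 run, from -0.71 to 1.15 for Trim30d. Among the 9, 5 intervals lay within 1.5-fold and 8 within 2-fold in either direction, as did 26 and 35 of the 43. Against media, the cells given IFNγ with FK866 had the same 9 genes called higher, with log2 fold changes between 1.07 and 6.08, beside 2.76% of all genes tested called higher and 0.597% lower, 3.36% in all. With the block and without 1 number, all 9 stayed called. Without the block and without 1 library, 6 to 9 of them did. Trim12a was lost without media Control 5 (adjusted p = 0.0587), Trim25 without any 1 of the media libraries (0.0612, 0.0508 and 0.0736 for Control 3, 4 and 5), Trim30d without media Control 3 (0.0577) or Control 4 (0.0692), and Trim34a without media Control 3 (0.0627) or Control 5 (0.0713). Without the Control 4 library given FK866, Trim25 (0.0713), Trim30d (0.0563) and Trim34a (0.0501) were lost. This comparison shares its media libraries with the comparison of IFNγ, and the comparison of FK866 shares the IFNγ libraries. No TRIM gene was called lower by edgeR, DESeq2 or limma-voom without a block, Trim2 and Trim67 were lower at an unadjusted p below 0.05, and with the block 10 were called higher (beside 8.53%) and 6 lower (Trim2, Trim8, Trim32, Trim62, Trim63 and Trim65, beside 7.61%), 16 in all (16.1%). Of the 2 not described above, Trim8 had 64.7, 76.0 and 71.1 CPM in media and 64.8, 60.8 and 50.03 CPM with IFNγ plus FK866 (log2 fold change -0.27, adjusted p = 0.0246 with the block and 0.522 without). Trim32, known from muscular dystrophy, had 40.7, 35.1 and 40.3 CPM against 39.8, 29.9 and 26.8 CPM (-0.28, 0.0379 and 0.761). The groups of both genes overlapped. With the block and 1 number left out at a time, Trim62 was called lower each time. Trim2 and Trim63 were lost without Control 4, and Trim65 was lost whichever number was left out. Trim8 and Trim32 were lost without Control 4 or Control 5. In libraries that did not overlap, 10 members were above media (7.98%) and 3 below, Trim2, Trim67 and Trim71 (6.29%).

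More TRIM genes were called between the Control numbers than between treatments. A test of the number, with the group in the model, called 25 of the 43 (58.1%), beside 51.8% of all genes tested, so the share in the family was near that of the transcriptome. Control 3 was above the mean of Control 4 and Control 5 for 10 members and below it for 12, beside 19.6% and 18.9% of all genes tested. Control 4 was above Control 5 for 12 members (15.9% of all genes tested) and below it for 2, Trim62 and Trim63 (15.2%). The member with the smallest p was Trim25, whose mean over the 3 groups was 37.1 CPM in Control 3, 108 CPM in Control 4 and 73.2 CPM in Control 5. Control 3 was lower by a log2 difference of -1.27 (SE 0.07, adjusted p = 1.48e-11 by edgeR). Trim12a had means of 1.63, 8.70 and 6.10 CPM, with a log2 difference of -2.17 (SE 0.23, adjusted p = 4.02e-07). The means of Trim34a, at 0.984, 4.39 and 2.76 CPM, gave -1.84 (SE 0.34, adjusted p = 2.01e-04).

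Genes that IFNγ did not raise differed between the numbers as well. Trim28 had 233, 342 and 348 CPM, a log2 difference of -0.56 for Control 3 (SE 0.06, adjusted p = 3.61e-07 by edgeR). Trim44 ran the other way, at 202, 166 and 133 CPM, with 0.44 (SE 0.05, adjusted p = 6.45e-07), and every group held this order. Trim11, a SPRY member, had 32.8, 29.9 and 16.9 CPM, with Control 5 low (Control 4 against Control 5 log2 difference 0.82, SE 0.10, adjusted p = 3.96e-06). Trim62 had 48.0, 31.1 and 42.4 CPM, with 0.40 for Control 3 (SE 0.07, adjusted p = 6.31e-05). Trim9, a neuronal ligase, stood at 5.37, 3.17 and 1.27 CPM. Trim6 had 0 counts in all 3 Control 3 libraries and 95 counts in the other 6. Against a floor of 3 counts over the Control 3 libraries, which is 0.061 CPM, its level there was at least 15.1-fold lower. Trim10, too low to be tested, had 0, 19 and 6 counts in media and 0, 22 and 6 with IFNγ. With IFNγ plus FK866 it had 2, 8 and 3 counts, so it was not absent from Control 3.

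**Figure D4:**
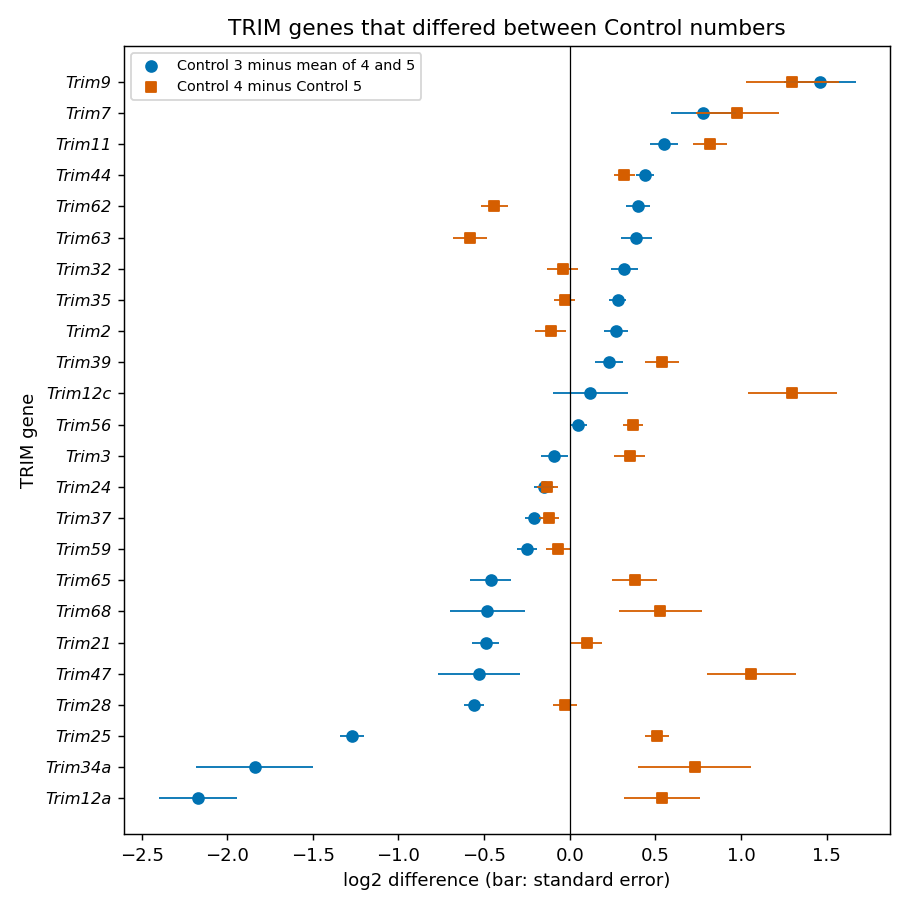
Log2 differences between the Control numbers, with standard errors, for 24 of the 25 TRIM genes that differed between them, from the fit with group and number; Trim6, at 0 counts in Control 3, is left out. Trim12a, Trim34a and Trim25 have the lowest values for Control 3 against the mean of Control 4 and Control 5 (blue), and Trim12c differs between Control 4 and Control 5 (orange).

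Whether the response to IFNγ itself differed between the numbers was tested as an interaction, with the libraries given IFNγ with and without FK866 as 1 exposed set. It called 0 of the 43 TRIM genes by edgeR, and 0 with DESeq2 and limma-voom, beside 0.597% of all genes tested. At an unadjusted p below 0.05 there were 3 members, Trim11, Trim32 and Trim63 (11.3% of all genes tested), and the smallest adjusted p was 0.225, for Trim63. A p above the threshold does not show that the responses were alike.

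Of the lists of other genes that TRIM proteins work with, that of RNA and DNA sensing held the most calls. The lists were chosen with earlier results of these data known, so their counts are a description and not a test. In a list of 22 sensors, adaptors and factors, 7 were called higher by edgeR and none lower (1, Traf3, at an unadjusted p below 0.05), where 2.8% of all genes tested were called higher and 0.499% lower, with a median log2 fold change of 0.39 (-0.01 over all genes tested). The block fit called 13 higher and Traf3 lower, beside 8.12% and 6.14% of all genes tested. Ddx58, which encodes RIG-I, went from 7.71 ± 1.47 to 81.6 ± 10.8 CPM with IFNγ (log2 fold change 3.40, SE 0.18). Stat2, a subunit of the ISRE-binding complex, went from 10.8 ± 1.53 to 178 ± 47.8 CPM (4.04, SE 0.27). Tmem173, which encodes STING, went from 19.1 ± 0.852 to 52.9 ± 2.62 CPM (1.47, SE 0.10; SD and n = 3 throughout). Irf9, Ifih1, Rnf135 and Irf7 were the other 4.

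Among 17 genes of ubiquitin and its E1 and E2 enzymes, 2 were called higher by edgeR and none lower, also at an unadjusted p below 0.05, beside the same 2.8% and 0.499% of all genes tested, and the median was 0.08. With the block 4 were called higher (8.12% of all genes tested) and none lower. The 2 called without the block were Ube2l6, from 5.06 ± 0.729 to 54.8 ± 12.7 CPM, and Uba7, from 3.23 ± 0.736 to 13.4 ± 3.47 CPM (SD, n = 3). These are the E2 and E1 enzymes of ISG15, a ubiquitin-like modifier. Ubb, a ubiquitin gene, had 434 ± 63.6 and 658 ± 63.1 CPM with an adjusted p of 0.052 by edgeR. Of 9 TRIM relatives with another symbol, 6 were tested and only Pml, the organiser of PML nuclear bodies, rose, from 48.2 ± 1.45 to 119 ± 25.4 CPM. Next by p, Mid1 gave a log2 fold change of 1.22 and Rnf207 one of -1.01, with adjusted p of 0.831 and 0.989 by edgeR. Of 14 chromatin partners of TRIM28 and TRIM24, only Daxx, a histone chaperone, rose, from 19.4 ± 2.13 to 38.5 ± 4.95 CPM, and the deacetylase Hdac2 (-0.16) and Pphln1 (0.16) had adjusted p of 0.724 and 0.87 by edgeR. None of 6 proteasome and antibody receptor genes listed as partners of TRIM21 was called, with log2 fold changes of -0.07 for Psmc1, 0.04 for Psmd1 and 0.02 for Vcp. The 3 genes that the block fit called for FK866 among all genes tested are in none of these lists.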

How the data were processed

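RNA was measured by sequencing in 9 libraries of the B16F10 line, 3 for each of 3 groups. The authors deposited 1 table of raw read counts per Ensembl gene, with a different total in each library, which holds no values per cell and was treated as bulk data although 10x is named in the series text. Per the submitters' processing notes, cutadapt 1.16, STAR 2.7.6a, featureCounts 1.6.3 and DESeq2 1.30.1 were used with the builds GRCm38 and mm10. Roles, strand setting, annotation release and the handling of reads in shared stretches were not given in the sources used here. Ensembl identifiers were matched to GENCODE M21 of GRCm38 (55227 of 55487 genes), the source of coordinates and exon lengths. Replicate libraries differed by more than sampling noise, so none was merged.

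Tests used edgeR 4.0.16 in R 4.3.3 (TMM, filterByExpr, quasi-likelihood F test) with 3 group means over all 9 libraries. Benjamini-Hochberg adjustment was over the 15237 genes kept, which hold 99.89% of counts. Fits were also run on simulated data. Those for the fit without the block held no difference between numbers, so they do not check that fit where numbers differ. Alternatives were DESeq2 1.42.0, limma 3.58.1 with voom, other size factors, no filter, 2 groups only, each library left out, and the title number as a block. The number pairs the libraries: deviations from group means correlated by 0.555 to 0.728 over the 9 same-number pairs and by -0.477 to -0.112 over the 18 others. Named with full values were all members called between treatments without the block, the 6 with the smallest p between numbers, the 5 highest per exon length and called members with at most 3 counts in media. Members called only with the block were named by log2 fold change and adjusted p, and each pathway list by its 3 genes with the smallest p for IFNγ. Members, lists and tests were chosen with earlier results of these data known. Promoters came from RefSeq. Shared sequence was counted as 50-base stretches of GENCODE transcripts, in place of a planned comparison of protein sequences, for which no table was used here. The value of 1 marker gene is not reported here.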

Additional observations from a re-analysis of the deposited data

How the results depend on the processing

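The 9 genes called higher with IFNγ were all called again with DESeq2, with other size factors, with no filter, with only the 2 groups in the fit and with the block, and 7 of them with limma-voom. Taking the Control number as a block (the pairing of libraries) gave 15 calls in place of 9 for IFNγ against media, 10 higher and 5 lower, and 16 calls for IFNγ plus FK866 against media, 10 higher and 6 lower. Without 1 library, IFNγ against media gave 5 to 9 calls, all higher, and IFNγ plus FK866 against media 6 to 9. With only its 2 groups in the fit, the latter gave 8, since 1 of the 9 genes was not kept for testing there. With the block and without 1 number, the ranges were 12 to 14 calls for IFNγ, with 2, 3 and 4 lower (without Control 3, 4 and 5), and 10 to 16 calls for IFNγ plus FK866, with 5, 1 and 3 lower. Why the block added calls was not tested, beyond a median standard error over the members of 0.105 with it and 0.272 without. FK866 against IFNγ gave 0 calls under every alternative run. For the 15 members called with IFNγ without or with the block, no log2 fold change against media changed sign. Signs for FK866 against IFNγ, and for the other members, were not compared between alternatives. The 25 members called between numbers became 23 to 26 with other tools and filters and 24 to 27 without 1 library. Limits are the few media counts of Trim12a, Trim12c, Trim30d, Trim34a and Trim69, which set no tight fold, the shared sequence of the chromosome 7 genes, and the unstated meaning of the Control numbers.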
